A study of Fragaria vesca with 12 samples.

Results

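The regions described here are the m6A peaks of wild-type (WT) strawberry fruit that lie in a 3' UTR and were found again in fruit of the Fvalkbh10b mutant. A WT peak was taken when the authors annotated it as 3' UTR and it overlapped any peak of the mutant list by at least 1 base on the same chromosome and strand. Of 13055 WT 3' UTR peaks, 11923 met this rule (91.3%), and they made up 49.7% of all 23966 WT peaks. They lay in 10195 genes. The study profiled fruit of the diploid strawberry Fragaria vesca at 27 days post anthesis (DPA) in WT plants and in the Fvalkbh10b mutant. For each genotype there were 3 biological replicates of input mRNA and 3 of mRNA precipitated with an antibody against m6A, or 12 libraries in 4 groups. The labels name no allele, line or number of plants, so the sources used here do not give the kind of mutation. The peaks were deposited as 1 list per genotype, with the replicates combined.

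N6-methyladenosine (m6A) is a methyl mark on adenosines inside mRNA. A methyltransferase complex adds it, dioxygenases of the AlkB family can remove it, and proteins with a YTH domain bind it and affect how long the transcript lasts. In plants and animals the mark is found mostly near the stop codon and in the 3' UTR, and in Arabidopsis the enzyme ALKBH10B removes m6A from mRNA.

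The expression table holds FPKM, fragments scaled by transcript length and by the library's mapped fragments, for the 6 input libraries, which summed to 467174 to 522590 FPKM; read depth is unknown. Genes with a shared 3' UTR peak held 48.2% to 50.2% of the summed FPKM of a library. A single gene without such a peak, FvH4_3g20030, held 12% to 12.3% of it in WT and 20.4% to 23.3% in the mutant. The labelled tissue is fruit, and the marker lists differed between the genotypes. The 75 ripe receptacle genes summed to 10510 to 10800 FPKM in the WT libraries, against 1847 to 1910 in those of the mutant. The 34 green tissue genes summed to 271 to 286 FPKM in WT, against 2698 to 2886 in the mutant. The 30 achene or seed genes summed to 634 to 650 and 360 to 375. The 39 genes of lignified vascular tissue summed to 64 to 70 and 102 to 105. None of these genes is listed at 0 in all 6 input libraries. Their part in the results that follow was not tested, and fewer cells of a type and less RNA per cell cannot be told apart in whole fruit.

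The shared 3' UTR peaks were strongly enriched in both genotypes, and to nearly the same level. The median WT peak had a log2 ratio of IP over input of 3.08, an 8.46-fold enrichment, and the middle 50% of peaks ran from 2.53 to 3.67. The mutant peaks that overlapped them had a median of 3.13, an 8.75-fold enrichment, with the middle 50% from 2.59 to 3.71. In WT the values ran from 0.29 to 8.60. Only 101 peaks were below a log2 ratio of 1, and 188 were at 5 or more. These are the authors' values, 1 per peak and genotype, so they carry no replicate error and the difference between lists has no test of its own.

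**Figure D1:**
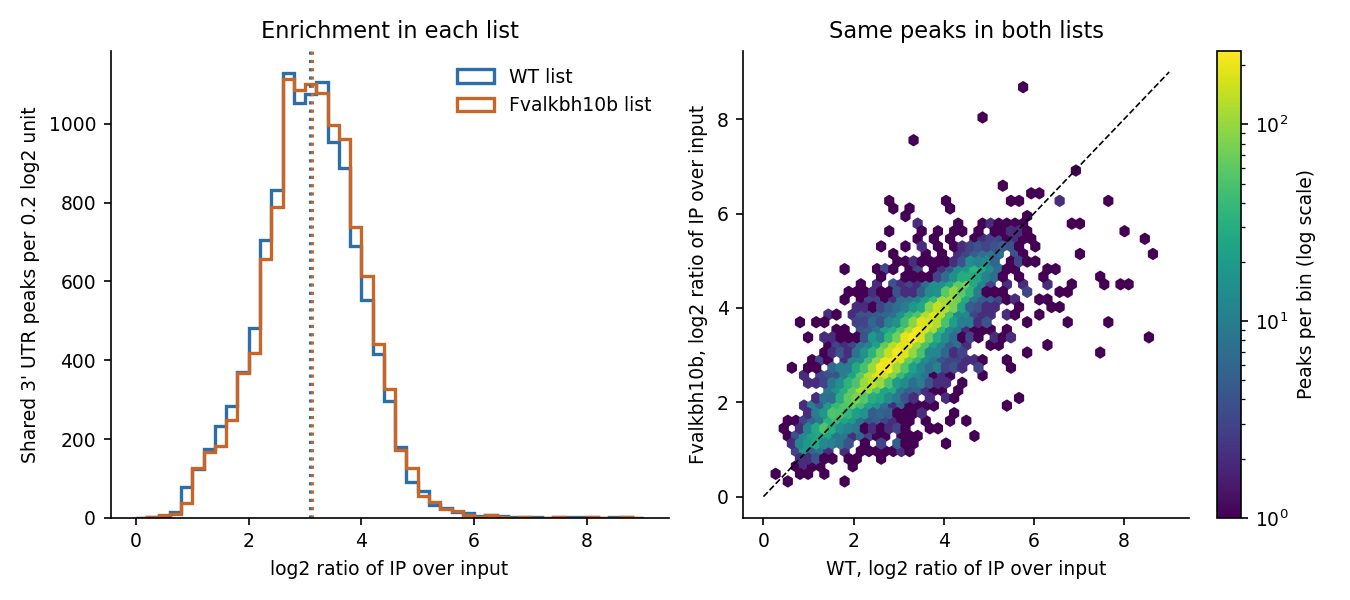
Left, number of shared 3' UTR peaks by log2 ratio of IP over input in the WT and the Fvalkbh10b list, with dotted lines at the medians of 3.08 and 3.13. Right, the same 11923 peaks with the WT value on the x axis and the mutant value on the y axis, coloured by peaks per bin; most lie near the dashed line of equal values, and the points far from it are single peaks.

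Peak by peak, the mutant value was higher for 6856 of the 11923 peaks (57.5%), lower for 4914 (41.2%) and equal for 153. The median difference, mutant minus WT, was 0.05 log2 units, with the middle 50% between -0.14 and 0.24. The 2 values lay within 0.5 of each other for 10022 peaks (84.1%). A difference of 1 or more was found for 263 peaks in favour of the mutant and for 254 in favour of WT. Across peaks the enrichments of the 2 lists had a Pearson r of 0.859 (n = 11923 peaks, which share their libraries within a genotype and are not replicates).

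The most enriched peaks in well expressed genes of known name belonged to several protein classes. A gene for a pentatricopeptide repeat protein (FvH4_3g43180), of a family that binds RNA in organelles, carried a peak of 275 bases at the end of the gene (chromosome 3, 36054031 to 36054305, minus strand). Its log2 enrichment was 8.08 in WT and 4.56 in the mutant, where the overlapping peak has 650 bases, and no peak of the authors' table of differential peaks overlapped it. A second pentatricopeptide repeat gene, FvH4_3g43110, had 7.06 in WT and 5.79 in the mutant (chromosome 3, 36005274 to 36005823, minus strand). It lay over a differential peak called lower, with a deposited change of -1.63. Both genes carry the same description, and such genes may share reads. A kelch domain gene (FvH4_5g07300) stood at 6.60 and 6.34. The mitochondrial invertase gene FvH4_6g07880, whose enzyme splits sucrose, had 6.57 over 100 bases in WT and 4.78 over 250 in the mutant. These 2 values are for unlike regions, and no differential peak overlapped this WT peak. The E3 ubiquitin ligase gene ARI7 (FvH4_4g11130) had nearly equal values of 5.65 and 5.58.

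The genes with the most abundant RNA had peaks of other strengths. Probable pectate lyase 8 (FvH4_4g05760), an enzyme that cleaves pectin, had the highest WT input of any named gene with a shared 3' UTR peak. Its peak of 150 bases had a log2 enrichment of 0.91 in WT and 1.15 in the mutant. Elongation factor 1-alpha-like (FvH4_3g33150), which delivers aminoacyl-tRNA to the ribosome, stood at 1.25 and 1.32, and glutamine synthetase (FvH4_1g30220), which fixes ammonium, at 1.11 and 1.16. The 14-3-3 protein 4 gene (FvH4_6g45301), whose protein binds phosphorylated partners, had 3.19 and 3.35. Over all shared peaks the median WT enrichment hardly differed with gene expression: it was 3.14, 3.05, 3.09 and 3.05 in 4 classes of equal size from low to high input FPKM.

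The rule asks only for overlap, so these figures describe how the bounds of the overlapping peaks compared and say nothing of whether a peak stayed in place. In 3023 cases (25.4%) the bounds in the 2 lists were identical. The 3' edge was the same for 7349 peaks (61.6%) and the 5' edge for 4596 (38.5%). Where an edge moved, the median shift was 75 bases at the 5' side and 50 bases at the 3' side, and it went both ways: the mutant peak reached further 5' for 29.8% and less far for 31.6%. The corresponding shares at the 3' side were 17.8% and 20.5%. The median share of the WT span covered by the best overlapping mutant peak was 100%, with a 5th percentile of 50%. The overlapping mutant peak was itself annotated as 3' UTR for 11717 peaks (98.3%), as exonic for 179 and as 5' UTR for 27, and it was in the same gene for 11917.

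The median span was 575 bases in WT, with the middle 50% from 300 to 1002, and 600 bases in the mutant, from 350 to 1020. Spans run from the first to the last base of a peak and include introns, since the deposited tables give no exon blocks. There were 1775 peaks of 200 bases or less (14.9%), 2984 of more than 1000 (25%) and 284 of more than 3000. The greatest spans in well expressed named genes included an enoyl-[acyl-carrier-protein] reductase gene of fatty acid synthesis (FvH4_6g22440), with 9985 bases and enrichments of 3.83 and 4.28. A histone H1.2 gene (FvH4_2g22280), for a linker histone, had a peak of 8824 bases at 2.78 and 2.53. Its best overlapping peak in the authors' table of differential peaks went against these values, with a change of 1.53 called higher in the mutant. Wider peaks were more enriched: the median WT value was 2.58 for spans of 100 to 300 bases, 3.02 for 300 to 575, 3.35 for 575 to 1002 and 3.43 above that. A total of 612 peaks (5.1%) lay over 2 or more mutant peaks, and 381 mutant peaks lay over 2 or more of the WT peaks. In 1400 cases (11.7%) the span in one list was over 2 times that in the other, and the 2 enrichments are then for unlike regions. All counts here are of WT peaks, and some neighbours are therefore set against the same mutant peak.

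Most shared peaks ended close to the 3' end of the gene. For 11885 peaks the gene's bounds were in the expression table, and the median distance from the peak's 3' edge to the gene's 3' bound was 70 bases in the genome. The peak ended exactly at the bound in 4047 cases (34.1%) and at it or no more than 100 bases inside it in 6476 (54.5%). It lay more than 1000 bases away in 849 (7.1%). Enrichment was lower further from the bound. Peaks that ended at the bound had a median of 3.40 in WT and 3.44 in the mutant, against 2.88 and 2.96 for the 7802 that ended inside it. Among the latter the WT median was 3.29 at 1 to 75 bases, 2.91 at 75 to 225, 2.63 at 225 to 478 and 2.64 further away. Peaks at the bound were also wider, with a median of 695 bases against 510. Their 3' edge was the same in the mutant for 86.8% of cases, against 48.7% of those inside. Only 36 peaks (0.3%) ran past the bound, so this contrast is fixed in part by the annotated end of the gene. These are descriptions over peaks, with no test.

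**Figure D2:**
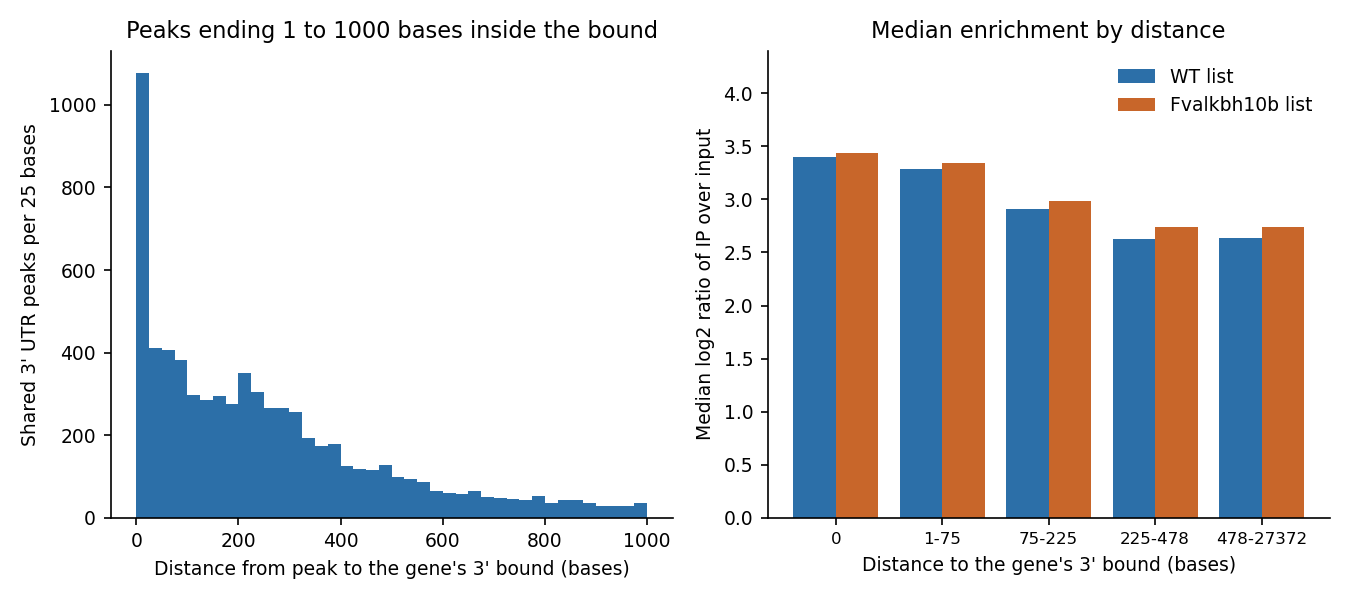
Left, number of shared 3' UTR peaks per 25 bases of distance between the peak's 3' edge and the gene's 3' bound, for peaks that ended 1 to 1000 bases inside it; the 4047 peaks at the bound itself are not drawn. Right, median log2 ratio of IP over input at the bound (0) and in 4 distance classes of equal size, in both lists; the WT median went from 3.40 at the bound to 2.64 in the most distant class.

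In genes that also had a WT peak elsewhere, the shared 3' UTR peak was nearly always the stronger. Of the 10195 genes, 2615 (25.6%) also had a WT peak in a coding exon, and the 3' UTR peak was the more enriched in 2493 of them (95.3%), by a median of 1.89 log2 units. A WT 5' UTR peak was present in 2691 of the genes (26.4%). The shared 3' UTR peak was above it in 2543 (94.5%), by a median of 1.80. As groups, the 4946 shared coding exon peaks had a median WT enrichment of 1.5 and the 2854 shared 5' UTR peaks of 1.38. A smaller part of the WT peaks was shared there, 69.0% of 7167 in coding exons and 76.2% of 3744 in the 5' UTR, against the 91.3% of the 3' UTR. Within genes, the coding exon and 5' UTR peaks could be shared or not, while the 3' UTR peaks had to be shared. Shared 3' UTR peaks were more enriched than non-shared ones, with WT medians of 3.08 and 2.41. The contrast within genes is therefore fixed in part by the rule. No test was run on the shares given here.

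The 1132 WT 3' UTR peaks without an overlapping mutant peak were narrower and weaker. Their median span was 150 bases and their median log2 enrichment was 2.41. A wide peak meets a rule of 1 shared base more readily than a narrow one, and wider peaks were more enriched. The contrast in span and enrichment is therefore fixed in part by the rule. The genes they lay in had a median input of 4.90 FPKM in WT and 6.11 in the mutant, counted per peak, while those of the shared peaks had 8.89 and 10.64. In the mutant, 15.7% of the non-shared peaks lay in a gene below 1 FPKM, against 4.4% of the shared ones. Of the non-shared peaks, 565 (49.9%) lay in a gene that also held a shared one. Values close to the threshold of the rule are given with no test. The 35 peaks that shared 50 bases or fewer with a mutant peak, the fewest being 25 bases, had a median WT enrichment of 2.76, with the middle 50% from 2.26 to 3.45. The 133 non-shared peaks that came within 50 bases of a mutant peak had a median of 2.63, from 2.21 to 2.86.

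Most genes had a single shared 3' UTR peak (8632), while 1418 had 2, 125 had 3 and 20 had 4. In the 1563 genes with 2 or more, the values within a gene spanned a median of 0.82 log2 units. The peak nearest the 3' end was more enriched than the first in 1042 genes and less in 509, with medians of 2.91 for the last and 2.56 for the first. Pectin acetylesterase 3 (FvH4_1g26120), which removes acetyl groups from pectin, carried 4 peaks on chromosome 1 between 17994964 and 17996463, plus strand. Their WT values were 2.78, 2.65, 3.02 and 2.92 and their mutant values 2.58, 2.37, 2.91 and 2.87, from 5' to 3', so all 4 were slightly lower in the mutant list. The first of them overlapped a differential peak with a change of -0.32 in the authors' deposited table. In the annexin D2-like gene (FvH4_1g20930), for a calcium-dependent membrane-binding protein, the 4 peaks varied more. The highest had 4.05 in WT and 4.19 in the mutant and lay 4812 bases from the gene's 3' bound. These 2 values are for unlike regions, of 200 bases in WT and 1958 in the mutant. The deposited change there was -0.33, called lower. The lowest of the 4 peaks had 2.30 in both lists.

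By chromosome, the part of WT 3' UTR peaks that was shared and their enrichment varied little. Chromosomes 1 to 7 held all but 6 of them, the share of WT 3' UTR peaks that was shared ran from 90.5% to 92.0% per chromosome, and the median WT enrichment from 3.05 to 3.12. Of all members, 50.1% were on the plus strand.

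Which of these peaks changed in the mutant was read from the authors' deposited table of differential peaks, at an adjusted p below 0.05. That table tests the change in the ratio of IP over input between genotypes; its p-values are rounded to 2 decimals, and the sources used here do not name the method. Shared 3' UTR peaks lay over a peak called higher in the mutant in 2324 cases (19.5%), where the same share over all WT peaks was 16.4%. They lay over a peak called lower in 1344 cases (11.3%), where the share over all WT peaks was 7.62%. The shared 3' UTR peaks are themselves close to 50% of all WT peaks, and the difference between the shares was not tested. With 21 over both kinds, 8276 (69.4%) lay over neither. Most of these have no tested change, since 6972 shared peaks (58.5%) lay over no peak of the differential table at all. These peaks fell in 2169 genes with a peak called higher and 1302 with a peak called lower, and 53 genes had both.

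The called changes were small. For the 2320 peaks whose best overlapping differential peak was called higher, the median log2 change in the authors' deposited table was 0.38, and 189 of them reached 1. For the 1295 called lower the median was -0.42, and 142 of them were at -1 or below. With a log2 change of at least 1 as a further condition, 1.6% of the shared peaks lay over a higher and 1.3% over a lower differential peak, where all WT peaks gave 1.59% and 1.65%. The differential peak often has other bounds than the WT peak, and the change then does not equal the difference of the 2 lists. The signs matched for 2209 of the 2320 higher and 1138 of the 1295 lower peaks. Where the 3 tables gave the same interval they matched in all 432 and all 207. Seen from the other side, of the differential peaks annotated as 3' UTR, 2238 of 2437 called higher (91.8%) and 1374 of 1468 called lower (93.6%) overlapped a shared 3' UTR peak.

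Peaks in highly expressed genes were called more often. From the lowest to the highest class of input FPKM, the share over a higher differential peak was 9.9%, 14.5%, 20.0% and 33.7%. Over a lower one it was 7.5%, 8.5%, 11.9% and 17.2%. All WT peaks gave 8.1%, 12.4%, 18.3% and 30.9%, and 6.1%, 6.0%, 7.5% and 11.7%, in classes with the same bounds. The size of the called change went the other way, from a median of 0.88 in the lowest class to 0.27 in the highest, and from -0.87 to -0.26 for lower peaks. The share called also differed with position. Peaks at the gene's 3' bound lay over a higher differential peak in 16.8% and a lower one in 12.8%, and those inside it in 21.0% and 10.5%. Weakly enriched WT peaks were more often over a higher differential peak, 25.2% in the lowest class of WT enrichment and 13.5% in the highest, and less often over a lower one, 6.2% and 15.7%. The WT value enters both the class and the change here, so this last pattern is fixed in part by the way it was drawn up. None of these shares was tested.

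**Figure D3:**
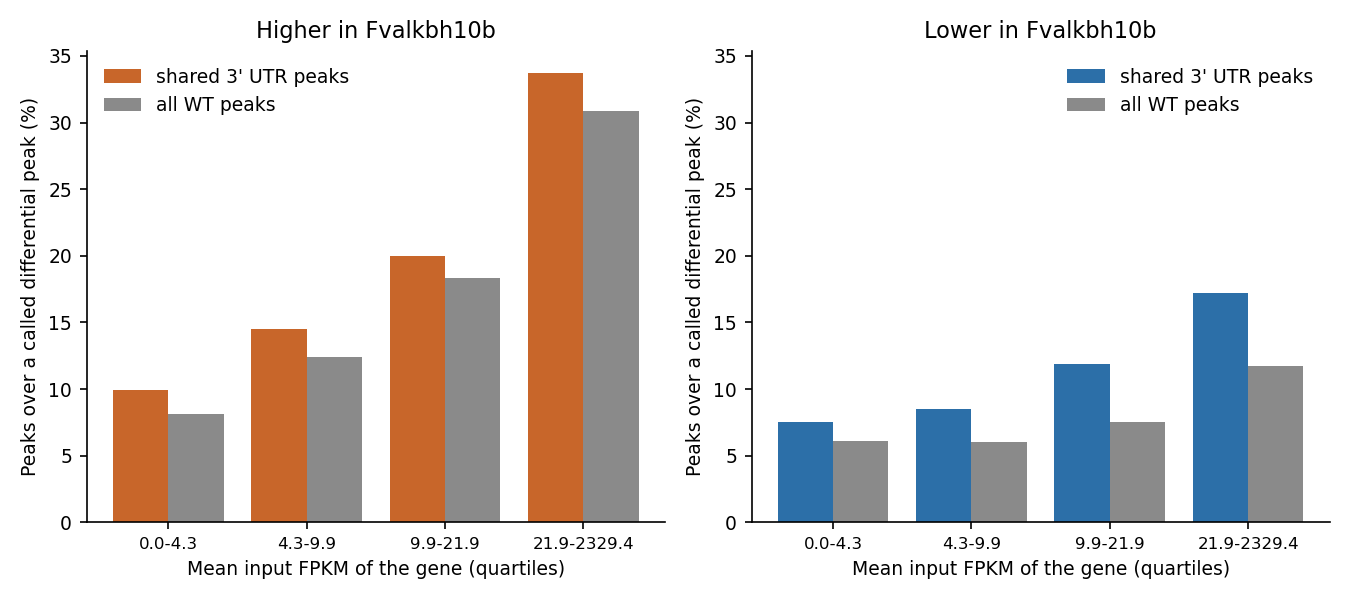
Share of peaks that overlapped a differential peak called higher (left) or lower (right) in the mutant in the authors' deposited table, for shared 3' UTR peaks (coloured) and all WT peaks (grey), in 4 classes of mean input FPKM of the gene. The share of shared 3' UTR peaks went from 9.9% to 33.7% for higher and from 7.5% to 17.2% for lower peaks.

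Among the largest higher changes in genes of at least 1 FPKM was a proline-rich protein gene (FvH4_7g13500), of a class found in cell walls. Its peak of 350 bases (chromosome 7, 12109002 to 12109351, plus strand) had a log2 enrichment of 3.24 in WT and 7.54 in the mutant, and the authors' deposited table gives a change of 4.2. Input FPKM was 214.42, 231.42 and 232.70 in WT and 260.74, 270.24 and 273.73 in the mutant. For phosphofructokinase 4 (FvH4_7g26950), an enzyme of glycolysis, the deposited change was 4.84. The peak had 3.53 over 1362 bases in WT and 3.41 over 375 in the mutant list, and these 2 values are for unlike regions. The differential peak there is an interval of its own. A gene of the ENHANCED DISEASE RESISTANCE 2-like family (FvH4_7g03330) had 2.45 in WT, 4.83 in the mutant and a deposited change of 2.63.

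Among the largest lower changes, the E3 ubiquitin ligase gene DRIP2-like (FvH4_2g22360) had the highest WT enrichment of all shared 3' UTR peaks. Its peak of 225 bases at the gene's end (chromosome 2, 18337829 to 18338053, minus strand) had 8.60 in WT and 5.17 in the mutant, and the deposited change was -3.43. Its input RNA was low in both genotypes, with 2.19, 1.32 and 1.72 FPKM in WT and 2.15, 1.45 and 1.68 in the mutant. The transcription factor gene LOB domain-containing protein 21 (FvH4_7g24800) had 3.0 in WT and 1.04 in the mutant, with a deposited change of -2.31. For the pyruvate kinase gene FvH4_5g21480, of the last step of glycolysis, the deposited change was -3.69. The list values were 1.41 over 475 bases in WT and 2.36 over 150 in the mutant. These 2 values are for unlike regions, and the WT peak lay over 2 mutant peaks.

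Input RNA differed between the genotypes in most tested genes, with and without a shared 3' UTR peak. RNA was tested with limma on log2(FPKM + 1) in the 15571 genes that averaged 1 FPKM or more, with 3 libraries per genotype. Of 9666 tested genes with a shared peak, 4618 rose in the mutant (47.8%) and 1670 fell (17.3%), at a limma adjusted p below 0.05; over all tested genes 48.3% rose and 19.1% fell. Of the 5905 tested genes without one, 2909 rose (49.3%) and 1308 fell (22.2%). With each library rescaled to one median, 2664 of these genes rose (27.6%) and 3243 fell (33.6%), where all tested genes gave 30.8% and 32.2% and those without a shared peak 36.2% and 29.9%, so the share that rose depends on the scaling. The differences between these shares were not tested. The median log2 change of the genes with a shared peak was 0.22, that of all tested genes 0.25, and after rescaling -0.03 and 0.00. A change of at least 2-fold on this scale was reached by 958 genes with a shared peak that rose (9.91%) and 349 that fell (3.61%), where all tested genes gave 14.0% and 6.49%. After rescaling these were 647 (6.69%) and 523 (5.41%), where all tested genes gave 10.1% and 8.46%. Genes with a shared peak made up 62.1% of all tested genes. Their share grew with expression, from 37.5% in the lowest of 10 classes of mean FPKM to 73.9% in the eighth, and stood at 64.3% in the highest. The input libraries of this test are also the denominators of the peak enrichments, so RNA and peak changes are set side by side below and no relation between them is drawn. Some genes below were named after both values were seen, and most of those over a called peak have changes of opposite sign. Genes named by rule went both ways, such as MADS-box 2 (RNA -1.81, peak 0.60) and SRK2I (RNA 1.27, peak 0.26).

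The largest falls in RNA were ranked in named genes with a shared 3' UTR peak and at least 1 FPKM in both genotypes. The falls included genes of fruit softening and colour, and 4 genes picked for a large fall or a high WT input are given here. Pectate lyase 8 (FvH4_4g05760; chromosome 4, 5132686 to 5132835, minus strand) had 2779.11, 2670.95 and 2738.90 FPKM in WT and 99.17, 97.15 and 91.28 in the mutant. It changed by -4.82 ± 0.04 log2 units (SE, 3 libraries per genotype, limma adjusted p = 2.84e-13). The deposited change of its peak was 0.26. Endoglucanase 8 (FvH4_4g33940), of a family that cuts glucan chains of the wall, had 669.81, 611.20 and 605.65 FPKM in WT and 2.92, 3.20 and 2.46 in the mutant. Its log2 change of -7.35 ± 0.08 (SE, limma adjusted p = 1.19e-12) was the largest fall among the named genes ranked. The peak of 100 bases had enrichments of 0.86 and 1.19. A polygalacturonase-like gene (FvH4_2g20970), also of pectin breakdown, had 747.64, 777.48 and 771.16 FPKM in WT and 73.34, 72.80 and 67.82 in the mutant, a log2 change of -3.41 ± 0.04 (SE, limma adjusted p = 3.29e-12). Its peak had 1.79 and 1.88. Anthocyanidin 3-O-glucosyltransferase 2 (FvH4_7g33840), which adds the sugar that stabilizes anthocyanins, had 149.27, 142.38 and 146.36 FPKM in WT and 1.36, 1.52 and 0.91 in the mutant. It changed by -6.03 ± 0.10 (SE, limma adjusted p = 2.68e-11), and its peak at the gene's end stood at 1.5 in WT and 2.36 in the mutant with a deposited change of 0.90. In each of these 4 genes the libraries of the 2 genotypes lay far apart, and each belongs to a family whose members may share reads. The ripe receptacle markers, which include 3 of these 4 genes, summed to 10510 to 10800 FPKM in WT against 1847 to 1910 in the mutant, and their part in this was not tested.

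**Figure D4:**
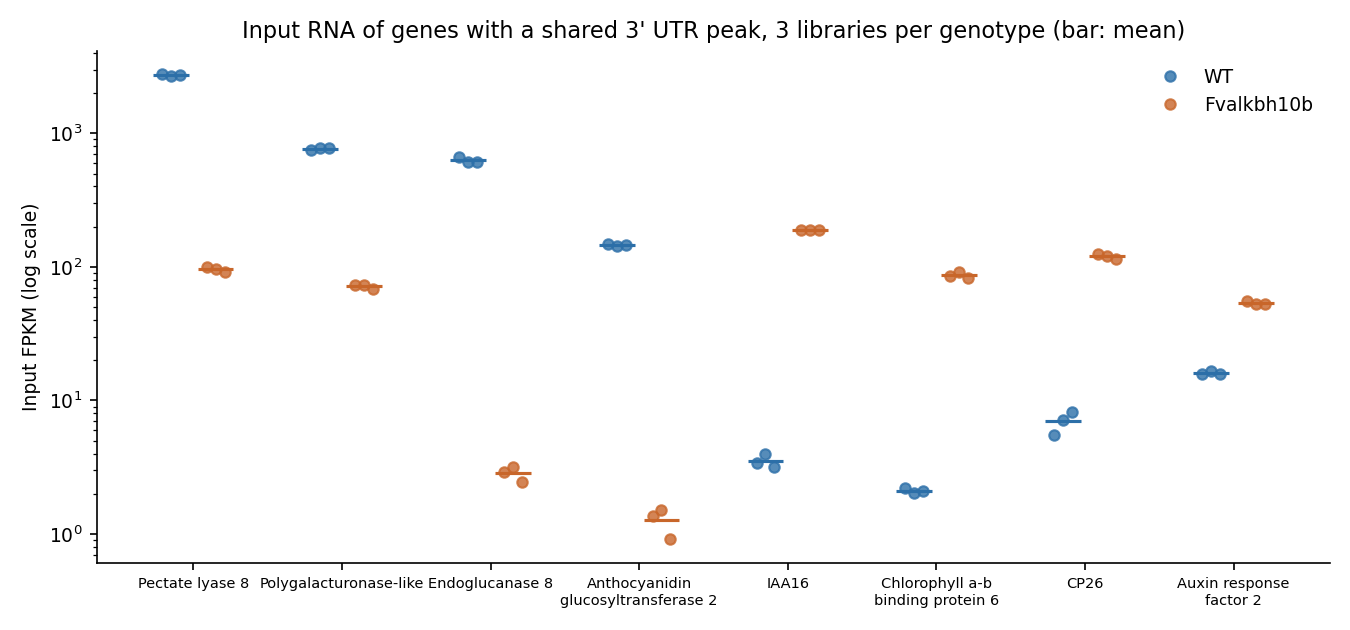
Input FPKM (log scale) of 8 genes with a shared 3' UTR peak in the 3 WT and the 3 Fvalkbh10b libraries; each point is a library and each bar the mean. The first 4 genes were lower in all mutant libraries and the last 4 higher, and the genotypes do not overlap in any of the 8; they were picked from the named genes with their values known, most of them for a large change in RNA.

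Cell wall genes as a list moved both ways. Of 90 tested genes, 34 (37.8%) had a shared 3' UTR peak, against 62.1% of all tested genes. Of these 34, 16 rose and 14 fell in RNA (13 and 15 after rescaling), with a median change of 0.19. Of the list's 42 peaks, 11 (26.2%) lay over a higher and 3 (7.1%) over a lower differential peak, with a median WT enrichment of 2.63. All shared 3' UTR peaks gave 19.5% and 11.3%. Among all genes with a shared peak 47.8% rose and 17.3% fell, or 27.6% and 33.6% after rescaling. These shares apply to all lists below, and no difference from them was tested. The strongest peaks were in beta-galactosidase 10 (FvH4_1g25130), at 4.14 and 4.37, and beta-galactosidase 17 (FvH4_6g33540), at 3.92 and 4.34; both enzymes remove galactose from wall polymers. The former rose from 17.6 ± 0.565 to 28.8 ± 1.91 FPKM and the latter fell from 42.6 ± 2.78 to 26.2 ± 1.62 (SD, n = 3). Among others, named after their values were seen, beta-galactosidase 3 (FvH4_1g12350) fell from 134 to 38.3 FPKM with a deposited peak change of 1.04. Endoglucanase 10-like (FvH4_2g38670) rose from 20.0 to 85.8 FPKM with equal enrichments of 2.88 in both lists, and was over no differential peak. Probable pectate lyase 13 (FvH4_7g18400) rose from 2.70 to 36.2 FPKM and carried 3 shared peaks, the strongest at 3.38 and 2.98.

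Of 47 tested flavonoid and anthocyanin genes, 12 (25.5%) had a shared 3' UTR peak, where the share over all tested genes was 62.1%. Of the 12, 3 rose and 7 fell in RNA (3 and 8 after rescaling). Of the list's 16 peaks, 3 (18.8%) lay over a higher and 0 over a lower differential peak. All shared 3' UTR peaks gave 19.5% and 11.3%, and no difference was tested. A dihydroflavonol 4-reductase gene (FvH4_2g39520), of the path to anthocyanins, had 45.02, 48.45 and 46.96 FPKM in WT and 15.39, 15.92 and 18.30 in the mutant. It changed by -1.45 ± 0.07 (SE, limma adjusted p = 6.63e-08), while its wide peak of 2320 bases stood at 2.47 and 2.29. A second dihydroflavonol-4-reductase gene, FvH4_2g34590, rose from 5.21 ± 0.425 to 9.40 ± 0.350 FPKM (SD, n = 3) with a peak at 3.24 and 2.94. The homeobox-leucine zipper gene ANTHOCYANINLESS 2 (FvH4_7g13350), named after its values were seen, rose from 4.69 to 11.7 FPKM with a deposited peak change of 0.39.

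Among sugar genes 42 of 61 tested (68.9%) had a shared 3' UTR peak, where the share over all tested genes was 62.1% (difference not tested), with 18 rising and 14 falling in RNA (10 and 17 after rescaling). Of 54 peaks, 13 (24.1%) lay over a higher and 6 (11.1%) over a lower differential peak, where all shared 3' UTR peaks gave 19.5% and 11.3%. Alkaline/neutral invertase E (FvH4_3g24390) and a starch synthase 4 gene (FvH4_4g00200) had enrichments of 4.2 and 4.23, and of 4.19 and 4.43. The following were named after their values were seen. Sugar transport protein 13 (FvH4_4g15150), a hexose carrier, fell from 68.7 to 5.52 FPKM, and its peak stood at 2.67 over 200 bases in WT and 3.47 over 650 in the mutant with a deposited change of 1.63. The transporter ERD6-like 7 (FvH4_2g24280) fell from 124 to 16.3 FPKM with enrichments of 2.79 over 125 bases and 3.62 over 440 and a deposited change of 0.90. Also picked in this way were 3 granule-bound starch synthase genes, which build amylose. FvH4_5g10580, FvH4_7g17630 and FvH4_6g48410 rose from 137 to 438, from 9.18 to 29.9 and from 18.4 to 49.9 FPKM, and the deposited changes of their peaks were -0.29, -0.52 and -0.39. The peak values of these genes use the same input libraries as their FPKM. The genes were picked with both values known, so no relation between RNA and peak change is drawn.

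Genes of abscisic acid, the hormone tied to strawberry ripening, had 9 shared 3' UTR peaks, in 9 of 18 tested genes. Of these peaks 5 lay over a higher and 3 over a lower differential peak, where all shared 3' UTR peaks gave 19.5% and 11.3%. The lowest input class gave 9.9% and 7.5% and the highest 33.7% and 17.2%, and not all 9 genes belong to the highest. With so few peaks no difference from these shares was tested. In RNA 5 of the 9 genes rose and 1 fell (5 and 3 after rescaling), where all genes with a shared peak gave 47.8% and 17.3%. All 9 are given here, since the list is short. Of the receptors, PYL8-like (FvH4_3g16470) had enrichments of 2.09 and 2.31 and PYL8 (FvH4_7g31130) of 2.47 and 2.86, the latter with a deposited change of 0.41. The former rose from 6.35 to 12.8 FPKM. Protein phosphatase 2C 24 (FvH4_3g37010), of a family that restrains the pathway, had 1.48 in WT and 3.25 in the mutant with a deposited change of 1.72, and fell from 26.0 ± 0.395 to 0.787 ± 0.297 FPKM (SD, n = 3; limma adjusted p = 2.70e-09). The kinases that carry the signal on, SRK2A (FvH4_5g28850), SRK2I (FvH4_1g15440) and SRK2E (FvH4_2g06910), had deposited changes of -0.15, 0.26 and 0.52, and all 3 rose in RNA. SRK2I had 10.72, 11.67 and 11.37 FPKM in WT and 25.94, 29.16 and 30.91 in the mutant, a log2 change of 1.27 ± 0.08 (SE, limma adjusted p = 3.37e-07). The bZIP factor genes ABI5-like 5 (FvH4_2g34330) and ABI5-like 2 (FvH4_7g04850) went opposite ways in peak, with deposited changes of 0.35 and -0.48, at limma adjusted p of 0.422 and 0.251 for RNA. After rescaling the former was called lower (limma adjusted p = 0.00132). Abscisic-aldehyde oxidase (FvH4_3g26980), the last step of synthesis, had 5.11 in WT and 4.24 in the mutant, a deposited change of -0.96, and rose from 1.23 to 2.83 FPKM.

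Among auxin genes 24 of 67 tested (35.8%) had a shared 3' UTR peak, against 62.1% of all tested genes. Of the 24, 18 rose and 2 fell in RNA (16 and 6 after rescaling), with a median change of 0.78. All genes with a shared peak gave 47.8% rises and 17.3% falls. Of 31 peaks, 6 (19.4%) lay over a higher and 8 (25.8%) over a lower differential peak. All shared 3' UTR peaks gave 19.5% and 11.3%, and none of these differences was tested. Auxin response factor 2 (FvH4_5g09310), a transcription factor of auxin responses, carried the most enriched peak of the list, 200 bases at 5.67 in WT and 4.72 in the mutant (chromosome 5, 5361440 to 5361639, minus strand). The adjacent peak of 750 bases had 3.96 and 3.76, with a deposited change of -0.43. Its RNA was 15.84, 16.70 and 15.81 FPKM in WT and 55.48, 52.64 and 52.96 in the mutant, a log2 change of 1.68 ± 0.05 (SE, limma adjusted p = 2.83e-09). IAA16 (FvH4_6g02860) belongs to a family of repressors of auxin response. It rose the most among named genes with a shared 3' UTR peak and at least 1 FPKM in both genotypes. It had 3.39, 3.97 and 3.20 FPKM in WT and 189.16, 188.91 and 188.63 in the mutant, a log2 change of 5.40 ± 0.07 (SE, limma adjusted p = 4.80e-12), with a peak at 2.40 and 2.15. The IAA27 gene FvH4_1g05630 and the IAA27-like gene FvH4_6g31930, named after their values were seen, rose from 5.63 to 82.9 and from 2.41 to 67.1 FPKM. Auxin response factor 6 (FvH4_3g05010), also named so, rose from 36.2 to 98.7 FPKM and had 2 peaks with deposited changes of -0.37 and -0.62.

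Of 24 tested ethylene genes, 10 (41.7%) had a shared 3' UTR peak; 4 rose and 3 fell in RNA (4 and 4 after rescaling), and of 12 peaks 1 lay over a higher and 3 over a lower differential peak. ETHYLENE-INSENSITIVE 2 (FvH4_6g16040), which passes on the ethylene signal, rose from 5.82 ± 0.724 to 13.7 ± 0.745 FPKM (SD, n = 3), with a peak at 3.80 and 3.62. CTR1 (FvH4_6g17880), a kinase that holds the pathway off, had 4.10 and 3.81 and a deposited change of -0.35. Ethylene receptor 2 (FvH4_4g03030), named after its values were seen, fell from 53.5 to 17.2 FPKM and had the single peak called higher, at 0.86. The synthesis gene 1-aminocyclopropane-1-carboxylate oxidase 5 (FvH4_7g32980), named likewise, fell from 9.30 to 0.807 FPKM with a peak at 2.59 and 2.50.

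The share of transcription factor genes with a shared 3' UTR peak is given by family, untested, against 62.1% of all tested genes. MADS-box genes, of which several act in flower and fruit identity, had them in 6 of 9 tested genes, WRKY genes in 18 of 28 (64.3%), bHLH genes in 23 of 42 (54.8%), AP2/ERF genes in 14 of 42 (33.3%), NAC genes in 8 of 25 (32.0%) and MYB genes in 7 of 23 (30.4%). Of the 23 bHLH genes, 19 rose and 0 fell in RNA in limma (0 also at an unadjusted p below 0.05; 16 and 1 after rescaling), with a median change of 0.72. The gene bHLH79 (FvH4_5g15930) had enrichments of 4.07 and 3.69. In 4 of the other families genes moved both ways: 3 and 3 in MADS-box, 9 and 4 in WRKY, 8 and 4 in AP2/ERF and 2 and 2 in MYB genes rose and fell. Of the NAC genes 2 rose and 0 fell (1 at an unadjusted p below 0.05 in limma). After rescaling these counts were 2 and 3, 6 and 7, 6 and 6, 1 and 2, and 1 rise and 4 falls. Peaks over a higher and a lower differential peak numbered 5 and 3 of 12 in MADS-box, 4 and 3 of 25 in WRKY, 3 and 4 of 28 in bHLH, 3 and 3 of 18 in AP2/ERF, 2 and 1 of 12 in NAC and 4 and 0 of 11 in MYB genes. All shared 3' UTR peaks gave 19.5% and 11.3%. In RNA 47.8% of all genes with a shared peak rose and 17.3% fell. No difference from these shares was tested. The AP2/ERF word pattern also took in genes that are no transcription factors, such as SNAP33-like (FvH4_5g14310), a protein of vesicle fusion.

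MADS-box 2 (FvH4_4g23530; chromosome 4, 26003484 to 26004571, plus strand) had an enrichment of 3.06 in WT and 3.66 in the mutant, with a deposited change of 0.60. Its RNA was 180.64, 182.86 and 191.73 FPKM in WT and 53.24, 53.05 and 50.31 in the mutant, a log2 change of -1.81 ± 0.04 (SE, limma adjusted p = 3.38e-10). MADS-box transcription factor 6 (FvH4_7g12670) had 3.57 and 3.30 with a deposited change of -0.25. Its RNA rose from 6.46 ± 0.721 to 18.1 ± 0.280 FPKM (SD, n = 3). The pair of AGAMOUS genes, of reproductive organ identity, differed little: FvH4_3g06720 had 3.03 and 3.0 in its stronger peak, and FvH4_6g37880 had 2.70 and 2.75. PMADS 1 (FvH4_2g38970), a floral homeotic gene named after its values were seen, had 2 adjacent WT peaks at 1.49 and 1.93. They overlapped 1 mutant peak at 3.01 and 1 differential peak with a deposited change of 2.04, and the RNA fell from 6.01 to 2.61 FPKM.

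Of 40 tested photosynthesis genes, 11 (27.5%) had a shared 3' UTR peak, where the share was 62.1% over all tested genes. By class of mean FPKM over the 6 input libraries, that share was 37.5% in the lowest, 73.9% at most and 64.3% in the highest. The difference was not tested. The genes described here had a few FPKM in WT and far more in the mutant, so their mean is not in the lowest class. All 11 rose in RNA (10 after rescaling), by a median of 3.59 log2 units. None of the 11 fell in limma, 0 at an adjusted and 0 at an unadjusted p below 0.05. The summed green tissue markers, of which 9 have a shared peak, stood at 271 to 286 FPKM in WT against 2698 to 2886 in the mutant; their part in this was not tested. Of the 13 peaks, 1 (7.7%) lay over a higher and 4 (30.8%) over a lower differential peak. All shared 3' UTR peaks gave 19.5% and 11.3%, and no difference was tested. The light-harvesting protein gene CP26 (FvH4_3g17050) had 5.48, 7.17 and 8.25 FPKM in WT and 125.13, 121.00 and 115.29 in the mutant, a log2 change of 3.94 ± 0.11 (SE, limma adjusted p = 1.06e-09). Its peak had 3.10 over 575 bases in WT and 2.89 over 200 in the mutant, with a deposited change of -0.64. Chlorophyll a-b binding protein 6 (FvH4_7g19750) rose from 2.11 ± 0.0961 to 86.3 ± 4.71 FPKM (SD, n = 3) and had 2.79 in both lists, over 1086 and 358 bases. The oxygen-evolving enhancer protein 3-2 gene (FvH4_3g02920), of photosystem II, rose from 8.90 ± 0.825 to 93.0 ± 2.56 FPKM, with a 3' UTR peak of 352 bases at 2.49 in WT and a deposited change of -0.42. The overlapping mutant peak, at 1.24, has 100 bases and is annotated exonic, so the 2 values are for unlike regions. Photosystem I subunit VI (FvH4_6g31740), named after its values were seen, had 2.80 and 1.78 with a deposited change of -1.07 and rose from 2.44 to 63.9 FPKM.

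The word pattern drawn up for the m6A machinery found 14 genes, of which 13 had a shared 3' UTR peak. Only 5 of these 13 are named as m6A writers, readers or erasers or their partners, and the others are 5 alkB homolog genes and 3 tRNA threonylcarbamoyltransferase genes, for which a role in m6A of mRNA is not shown here. Of the 13 genes that passed the expression filter 12 had such a peak, where the share of all tested genes was 62.1%; the difference was not tested. Over all shared 3' UTR peaks 19.5% lay over a higher and 11.3% over a lower differential peak, at an adjusted p below 0.05. Of the 13 peaks here 0 lay over one called in either direction, and no difference was tested. A total of 5 overlapped a peak of the authors' deposited table with an adjusted p of 0.05 to 0.11, with changes of -0.48 to -0.16. YTH domain-containing protein 1 (FvH4_5g01140; chromosome 5, 695988 to 696566, minus strand), of the family that binds m6A, had the highest enrichment, 5.32 in WT and 5.29 in the mutant. Its RNA was 6.46, 5.71 and 6.71 FPKM in WT and 5.75, 5.42 and 7.06 in the mutant, and the genotypes overlap. After rescaling it was called lower, with a log2 change of -0.29 (limma adjusted p = 0.0469). YTH domain-containing family protein 2 (FvH4_3g13840) had 3.13 and 2.90. The methyltransferase gene MT-A70-like (FvH4_5g11050), of the writer complex, had 2.23 and 1.83, and Hakai (FvH4_6g12190), a ubiquitin ligase that associates with that complex, had the lowest values, 1.81 and 1.69. RNA demethylase ALKBH5 (FvH4_1g11920) had 3.03 and 2.86, with a deposited change of -0.19 at an adjusted p listed as 0.05. Of the 12 tested genes, 6 rose and 0 fell in RNA in limma, the same at an unadjusted p below 0.05, and 3 rose and 2 fell after rescaling. Over all genes with a shared peak 47.8% rose and 17.3% fell, or 27.6% and 33.6% after rescaling. No difference from these shares was tested.

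No gene description names ALKBH10B. The uncharacterized gene FvH4_2g24110 was looked at after its values were seen, and the sources used here do not say whether it is the mutated gene. It carried a shared 3' UTR peak of 225 bases (chromosome 2, 19706358 to 19706582, plus strand), with enrichments of 2.83 in WT and 2.73 in the mutant. Its input RNA was 30.27, 28.53 and 31.03 FPKM in WT and 3.75, 3.84 and 5.34 in the mutant, and the genotypes do not overlap.

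Among lists with 20 or more tested genes, those of RNA processing and translation carried shared 3' UTR peaks most often. Splicing factors had them in 82 of 101 tested genes (81.2%) and cytosolic ribosomal proteins in 121 of 157 (77.1%), against the 62.1% of all tested genes. These shares were not tested. By class of mean FPKM, the share over all tested genes was 37.5% in the lowest, 73.9% at most and 64.3% in the highest. Of 140 peaks in ribosomal protein genes, 56 (40.0%) lay over a higher and 27 (19.3%) over a lower differential peak; the class of highest expression gave 33.7% and 17.2% over all shared 3' UTR peaks. The most enriched was in a 60S L13-2-like gene (FvH4_7g33460), at 5.51 and 5.74, and RNA of ribosomal protein genes with a shared peak rose in 45 and fell in 29, or 8 and 74 after rescaling. A pair of near-identical genes such as L13-2-like may share reads. Splicing factor peaks lay over a higher differential peak in 26 and a lower one in 10 of 104, and the RNA of 46 genes rose and of 6 fell (14 and 21 after rescaling). SR45 (FvH4_3g15770), a regulator of splice site choice, had 4.67 and 4.90, with a deposited change of 0.15.

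**Figure D5:**
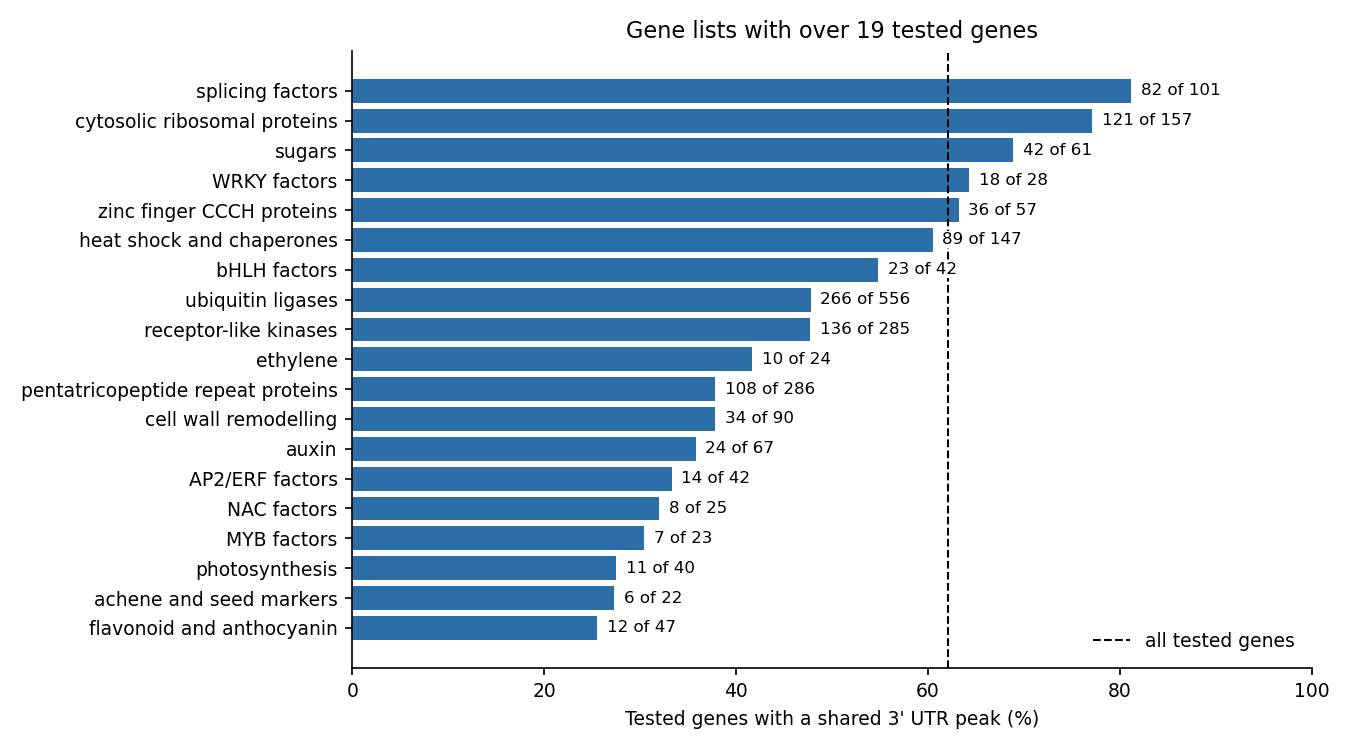
Share of tested genes with a shared 3' UTR peak in the gene lists with over 19 tested genes; labels give the counts and the dashed line marks the 62.1% of all tested genes. Splicing factors (81.2%) and cytosolic ribosomal proteins (77.1%) stand at the top, and photosynthesis, achene and flavonoid genes (25.5% to 27.5%) at the bottom.

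Zinc finger CCCH proteins, a family with many RNA-binding members, had shared 3' UTR peaks in 36 of 57 tested genes (63.2%), with 10 of 44 peaks over a higher and 2 over a lower differential peak. RNA rose in 13 of these genes and fell in 4 (6 and 11 after rescaling). Chaperone genes had them in 89 of 147 (60.5%), where 34 of 111 peaks lay over a higher and 11 over a lower differential peak, and 39 genes rose and 12 fell (21 and 28 after rescaling). Ubiquitin ligase genes had them in 266 of 556 (47.8%), with 67 and 25 of 318 peaks over higher and lower differential peaks, and 119 rises and 34 falls in RNA (70 and 77 after rescaling). COP1 (FvH4_5g22570), a repressor of light responses, had 4.51 and 4.24 with a deposited change of -0.28, and PRT6 (FvH4_6g13660), of the N-degron pathway, 4.58 and 3.61 with a deposited change of -0.90. Receptor-like kinase genes had a shared peak in 136 of 285 (47.7%), with 32 and 12 of 190 peaks over higher and lower differential peaks, and 82 rises and 23 falls in RNA (67 and 35 after rescaling). Pentatricopeptide repeat genes had one in 108 of 286 (37.8%), with 17 and 18 of 175 peaks over higher and lower differential peaks, and 55 rises and 4 falls (33 and 19 after rescaling). Over all tested genes 62.1% had a shared peak, and 19.5% and 11.3% of all shared 3' UTR peaks lay over higher and lower differential peaks. All genes with a shared peak gave 47.8% rises and 17.3% falls, or 27.6% and 33.6% after rescaling. No difference from these shares was tested for any of these lists.

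Genes that mark other parts of the fruit were counted as well. Of 22 tested achene and seed genes, 6 (27.3%) had a shared 3' UTR peak (62.1% over all tested genes, difference not tested). Of the 6 peaks 3 lay over a higher and 0 over a lower differential peak. All shared 3' UTR peaks gave 19.5% and 11.3%, and no difference was tested. In RNA 3 genes rose and 3 fell (2 and 3 after rescaling). The storage protein gene legumin A-like (FvH4_2g21430) had 1.01 over 125 bases in WT and 2.38 over 1234 bases in the mutant, with a deposited change of 2.12, and fell from 16.3 ± 0.880 to 6.55 ± 0.861 FPKM (SD, n = 3). An 11S globulin gene (FvH4_3g34840) had 2.44 and 2.56, and rose from 43.6 ± 1.72 to 56.3 ± 2.06 FPKM (SD, n = 3; limma adjusted p = 0.000159). That call was lost after rescaling, with a log2 change of 0.09 (limma adjusted p = 0.191). Of the 13 tested genes of lignified vascular tissue 0 had a shared 3' UTR peak. Their list held 5 such peaks in 3 laccase genes below the expression filter, 2 of them over a higher differential peak.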

How the data were processed

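The authors deposited 1 peak list per genotype, from 3 replicates combined per the file headers, with the log2 ratio of IP over input per peak, and p-values rounded to 2 decimals. A deposited table of differential peaks gives the log2 change of that ratio. The deposited expression table gives FPKM of the 6 input libraries. FastQC, HISAT2 and StringTie are named in the submitters' processing notes. The sources used here do not give the genome build, annotation or peak caller. Per the labels' protocols, mRNA was fragmented and precipitated with an antibody against m6A, and input and IP were sequenced in pairs.

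Peak starts count from 0 and were raised by 1; coordinates are those of the authors' build. Overlaps needed 1 base on the same strand; where several peaks overlapped, the one sharing most bases was used. Distances use the gene bounds of the expression table. Differential peaks were called at the authors' adjusted p below 0.05. A best overlapping differential peak gives each member's deposited change. Input RNA was tested with limma 3.58.1 (R 4.3.3, two-sided, mean-variance trend, Benjamini-Hochberg over 15571 genes) on log2(FPKM + 1) in genes averaging 1 FPKM or more; fold changes on this scale understate those of low genes. The step was tested on simulated data. Rescaling set each library to one median over the tested genes. Replicate numbers did not pair the libraries. Peak steps used Python 3.11.15 and pandas 2.3.3.

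Members and the 23 word-pattern gene lists were chosen with earlier results of these data known. Named genes followed a rule: the 8 highest WT enrichments, the 8 highest WT inputs, the 6 genes with most members, the 6 greatest spans, the 8 largest higher and 8 largest lower differential peaks, all m6A machinery members, and up to 3 per list by WT enrichment; the 8 largest falls and 8 largest rises in RNA were added later. The text gives a selection. Alternatives changed the overlap, thresholds, pseudocount, filter, scaling, replicate block and the libraries used. No genome was used, so no peak sequence is shown.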

Additional observations from a re-analysis of the deposited data

How the results depend on the processing

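The count of 11923 shared 3' UTR peaks was 11482 when mutant peaks had to cover 50% of the WT span, 10413 with a reciprocal overlap of 50%, 11786 when the mutant peak also had to be 3' UTR, and 11796 at a log2 enrichment of at least 1. With the reciprocal overlap the median WT enrichment was 3.13 and the median distance to the gene's 3' bound 50 bases; with the most enriched peak of each gene the median enrichment was 3.22. On identical bounds the median difference between lists was 0.04. The shares over higher and lower differential peaks were 18.1% and 9.1% with a reciprocal overlap of 50%, 1.6% and 1.3% at a log2 change of at least 1, and 20.6% and 12.1% at an adjusted p listed at 0.05 or less, which was chosen after seeing the data. Exon blocks are not in the tables used, so that alternative was not run.

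Counts of genes with changed RNA rest on the scaling: 2664 rose and 3243 fell after rescaling to one median, and 2917 and 2859 with quantile normalization. Leaving out each library in turn gave 4277 to 4342 rises and 1532 to 1608 falls. Replicate numbers did not pair the libraries (same-number correlations of 0.035, -0.031 and 0.029), and the replicate block gave 4543 rises and 1631 falls. The proline-rich protein gene FvH4_7g13500, called higher before, had a log2 change of -0.04 after rescaling (limma adjusted p = 0.461; the cause was not tested). For 54 genes whose RNA the text describes, most of them chosen for a large change, 581 of 594 values under 11 alternatives kept direction and call. The 11S globulin gene FvH4_3g34840 lost its call after rescaling (0.09). The uncalled change of DRIP2-like FvH4_2g22360 became -0.17 after rescaling and -0.40 with quantile normalization, and ran from -0.10 to 0.13 with a library left out; that of YTH1 FvH4_5g01140 ran from -0.15 to 0.02 with a library left out. ABI5-like 2 FvH4_7g04850 came to -0.11 and -0.16 under the other scalings. Over all 79 genes named, 64 of them called, rescaling kept 54 calls, lost 10 and gained 8, among the losses AGAMOUS FvH4_3g06720 (limma adjusted p = 0.114) and histone H1.2 FvH4_2g22280 (0.231); quantile normalization kept 59, lost 4, gained 4 and turned the direction of 1. Peak values carry no replicate spread, the differential calls rest on p-values rounded to 2 decimals, and read depth is unknown.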
